A study of Mus musculus with 2 samples.

Results

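The genes described here are the heat shock proteins, the heat shock factors and the DnaJ co-chaperones of the mouse brain. They were chosen by name: every gene on the array whose name starts with Hspa, Hspb, Hspc, Hspd, Hspe, Hsph, Hsp90, Hsf or Dnaj, apart from the endoplasmic reticulum (ER) chaperones Hspa5, Hsp90b1 and Dnajb9. This gave 64 genes of 27962 gene names on the array, with 126 of 41174 probes. Of these genes, 28 carried an Hsp or Hsf name and 36 a Dnaj name, and 38 had several probes. The name of Hspc171 (now Tmem208) comes from its prefix alone, and Hspbap1 and Hsf2bp are named for proteins that they bind. Dnajb10 and Hspa9a are older names of Dnajb2 and Hspa9. The genes now called Hsph1 and Hspa13 stand on the array under other names, so the rule did not take them.

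Whole brains were taken from female C57BL/6J dams 8 weeks old on postpartum day 0. The dams lacked TDAG51 (TDAG51-/-, KO), were wild-type (TDAG51+/+, WT), or lacked endogenous TDAG51 and carried a TDAG51 transgene (TDAG51-/-Tg2, KO Tg). TDAG51, also called Phlda1, is a protein with a pleckstrin homology-like domain whose expression responds to cell stress. The transgene came from a single line and was driven by the BAI1-AP4 promoter, which is active mainly in the cerebral cortex and hippocampus. The number of dams in each sample is not given in the sources used here. Each of 2 two-colour Agilent arrays set the KO sample, in Cy3, against WT or KO Tg, in Cy5, without a dye swap. Values are mean spot intensities, followed by the log2 ratio of KO over the control after background correction and loess normalization. Each comparison was made on 1 array, so no test across animals was possible, the spread between dams was not measured, and precision is limited by how few arrays there were. Both arrays used a KO sample, so their ratios are not independent of each other, and whether it was the same RNA is not given in the sources used here. Intensities are printed before normalization (median over all probes of 325.0 for KO against 348.0 for WT, and of 322.0 for KO against 368.0 for KO Tg), so a probe can read lower in KO and still have a log2 ratio above 0.

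Heat shock proteins are chaperones that hold, fold or disaggregate other proteins. HSP70 proteins bind exposed peptide stretches in cycles of ATP hydrolysis, DnaJ proteins bring them substrates and start that hydrolysis through the J domain, and HSP110 proteins exchange the nucleotide afterwards. HSP90 proteins mature kinases and steroid receptors, small heat shock proteins hold unfolded proteins without ATP, and HSF1 switches many of these genes on under stress. In neurons, DnaJ proteins also act in the clathrin and synaptic vesicle cycles.

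The TDAG51 probe read 350.5 in KO and 7283.2 in WT on the first array, which was 17.3-fold lower in KO. On the second array it read 44.1 in KO and 50.5 in the sample labelled KO Tg, near background in both channels. Whether the transgene holds the sequence of this probe is not given in the sources used here, so the probe did not check that label. All 8 brain markers, such as those of neurons, astrocytes and myelin, were well above background. Of 6 liver, muscle and islet markers, Alb was near background in every channel and the other 5 were above background. Myh4, a muscle myosin, read 2732.4 and 2698.7 in KO, 466.3 in WT and 534.4 in KO Tg (6.48-fold and 5.76-fold higher in KO), and Apoa2 was 1.56-fold and 2.88-fold higher. Many markers of brain regions differed between the KO sample and both control samples. KO was in Cy3 on both arrays, so genotype and dye cannot be told apart in these differences. Of 15 cerebellum markers, 10 were at least 2-fold higher in KO than in WT and 11 than in KO Tg. Barhl2 was 2.32-fold lower in KO than in KO Tg. The summed intensities of the cerebellum markers were 404194 and 411205 in KO, 204823 in WT and 203999 in KO Tg. Cbln1, Pcp2 and Zic1 were saturated in KO on both arrays, so the KO sums are lower bounds. Of 18 hindbrain and brainstem markers, 12 and 13 were higher (summed intensities of 12165 and 12497 in KO, 3948 in WT and 4655 in KO Tg). Isl1 was 2.65-fold lower in KO than in WT and 3.20-fold lower than in KO Tg. Of 10 striatum markers above background, 8 and 8 were lower (53165 and 50850 in KO, 184624 in WT and 189776 in KO Tg), and of 13 cortex and hippocampus markers 5 and 6 were lower (58782, 56894, 121434 and 145022). Wfs1 was saturated in KO Tg, so the cortex and hippocampus sum of KO Tg is a lower bound. None of these markers was at 0. Immediate early genes, which respond to activity and handling, had 3 of 9 at least 2-fold lower on each array, with summed intensities of 83081 and 71176 in KO, 125226 in WT and 120267 in KO Tg. Junb was saturated in WT and KO Tg, so the WT and KO Tg sums are lower bounds. Of 4 blood markers, 2 were lower than in WT and 3 higher than in KO Tg (4859 and 37992 in KO, 40550 in WT and 25000 in KO Tg). The part of any of these in the values of the chaperone genes was not tested.

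With the loess ratio, few chaperone genes differed by 2-fold. A probe was counted where the scanner marked it as well above background in at least 1 channel of the array. Of 121 such chaperone probes on the first array, 3 (2.48%) were at least 2-fold higher in KO than in WT, beside 4.90% of all 34571 probes counted in this way, and 4 (3.31%) were at least 2-fold lower, beside 4.42%. Of 122 chaperone probes on the second array, 2 (1.64%) were at least 2-fold higher in KO than in KO Tg, beside 4.72% of all probes, and 3 (2.46%) were at least 2-fold lower, beside 3.86%. When KO Tg was set against WT through the KO channels, 0 of 120 chaperone probes were at least 2-fold higher, beside 2.82% of all probes, and 1 was at least 2-fold lower, beside 3.18%. These shares depended on the ratio. With median centring, 3 chaperone probes were higher and 7 lower over WT (2.48% and 5.79%, beside 4.78% and 5.63% of all probes), and 2 and 5 over KO Tg (1.64% and 4.10%, beside 4.30% and 5.32%). Without normalization, 2 were higher and 10 lower over WT (1.65% and 8.26%, beside 3.35% and 8.26%), and 0 and 13 over KO Tg (0 and 10.7%, beside 2.77% and 8.71%). With the ratio of the scanner software, 7 were higher and 6 lower over WT (5.79% and 4.96%, beside 11.6% and 9.46%), and 6 and 5 over KO Tg (4.92% and 4.10%, beside 11.2% and 8.14%). With the deposited log2 ratio the numbers were 7 and 6 over WT (beside 11.3% and 9.71% of all probes) and 5 and 5 over KO Tg (beside 10.5% and 8.60%). The share lower in KO was thus below that of all probes in 4 of the 6 ratios computed over WT, and at or above it with median centring and without normalization, while over KO Tg it was above only without normalization. Between KO Tg and WT these numbers were 1 and 1 with median centring, beside 3.32% and 2.96% of all probes. They were also 1 and 1 without normalization (beside 3.57% and 2.75%). With the ratio of the scanner software they were 4 and 4 (beside 7.13% and 7.64%). The deposited log2 ratio gave 4 and 4 as well (beside 7.23% and 7.18%). An offset of 0 in the background correction gave 2 and 3 (beside 5.51% and 5.90%).

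The bulk of the chaperone probes lay close to 0. Within 1.5-fold of the control were 95 of 121 chaperone probes (78.5%) over WT, beside 73.3% of all probes, and 99 of 122 (81.1%) over KO Tg, beside 73.9%. The median log2 ratio of the chaperone probes was -0.01 over WT, beside 0.01 for all probes, and -0.05 over KO Tg, beside 0.01. Median centring put these medians at -0.17 and -0.18, beside -0.04 and -0.07 for all probes. As a measure of technical error alone, repeated spots of the same probe had a median standard deviation of 0.06 (log2 scale) among the spots over WT and of 0.07 among those over KO Tg (245 probes with at least 5 spots). The KO channels of both arrays differed by a robust standard deviation of 0.18 over 120 chaperone probes, beside 0.14 over all 32931 probes. The WT and KO Tg channels differed by 0.28 over 116 chaperone probes, beside 0.40 over all 30119.

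**Figure D1:**
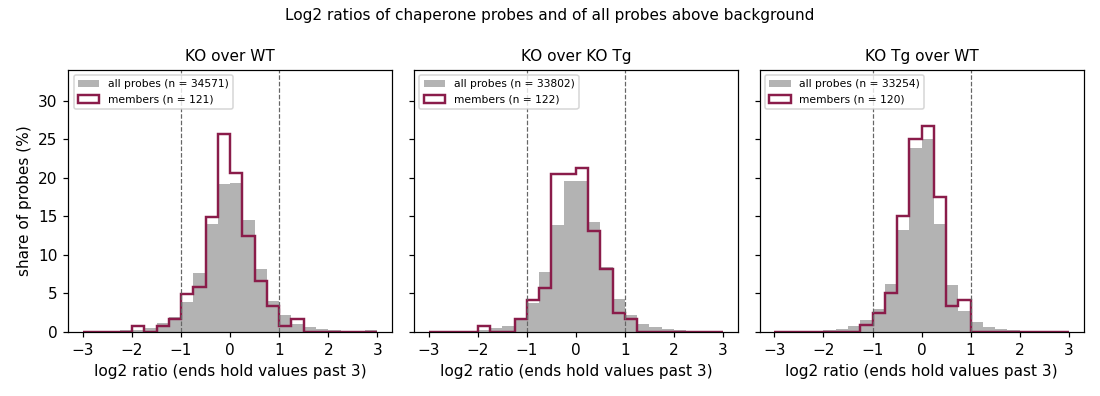
Share of probes (%) by log2 ratio, for the chaperone probes (line) and all probes above background (grey), in KO over WT, KO over KO Tg and KO Tg over WT; dashed lines mark 2-fold. The chaperone probes lie around 0 in all 3 comparisons, with 7, 5 and 1 probes past 2-fold.

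The sequences that follow show the promoters of 4 genes with heat shock elements, the sites at which heat shock factors bind, and that of Dnajb5, the gene with the largest change in the loess ratio. Promoters of 300 bases (250 before the start site) were read from RefSeq on GRCm38.p6, which held 50 of the chaperone genes. An element of 2 units was searched as GAANNTTC or TTCNNGAA, which read alike on both strands, and an element of 3 units as GAANNTTCNNGAA or its reverse TTCNNGAANNTTC, which holds a 2-unit element of each kind. The 2-unit element was in 14 of 66 chaperone promoters (21.2%) and in 15.1% of all 32851 promoters. The 3-unit element was in 4 chaperone promoters (6.06%), those of Hspd1, Hspe1 and Dnajb6, and in 0.603% of all promoters. These 4 windows hold only 2 separate places, since Hspd1 and Hspe1 share theirs and the 2 windows of Dnajb6 overlap on the same element. A match is a description of letters and not of a bound site. The 250 bases before the start site are printed 5′ to 3′, with the elements in capitals, for Hspe1 (chr1:55087898-55088147, plus strand), Hspa1a (chr17:34972157-34972406, minus strand), Hspb1 (chr5:135887669-135887918, plus strand), Dnajb6 (chr5:29735648-29735897, plus strand) and Dnajb5 (chr4:42949617-42949866, plus strand):
Hspe1: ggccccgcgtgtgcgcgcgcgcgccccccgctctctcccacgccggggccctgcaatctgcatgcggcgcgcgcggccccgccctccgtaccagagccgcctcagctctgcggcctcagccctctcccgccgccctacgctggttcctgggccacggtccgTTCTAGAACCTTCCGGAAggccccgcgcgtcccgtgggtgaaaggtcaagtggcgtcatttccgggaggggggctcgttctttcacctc
Hspa1a: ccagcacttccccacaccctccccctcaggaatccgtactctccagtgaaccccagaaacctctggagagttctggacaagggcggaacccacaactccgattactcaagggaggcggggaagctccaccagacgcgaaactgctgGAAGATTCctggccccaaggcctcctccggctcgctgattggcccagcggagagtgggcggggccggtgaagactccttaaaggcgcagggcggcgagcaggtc
Hspb1: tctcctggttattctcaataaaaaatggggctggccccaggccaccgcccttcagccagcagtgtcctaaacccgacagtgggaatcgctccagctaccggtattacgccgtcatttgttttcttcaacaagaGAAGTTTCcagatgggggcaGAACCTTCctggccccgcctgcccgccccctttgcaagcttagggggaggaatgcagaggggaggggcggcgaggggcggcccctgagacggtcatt
Dnajb6: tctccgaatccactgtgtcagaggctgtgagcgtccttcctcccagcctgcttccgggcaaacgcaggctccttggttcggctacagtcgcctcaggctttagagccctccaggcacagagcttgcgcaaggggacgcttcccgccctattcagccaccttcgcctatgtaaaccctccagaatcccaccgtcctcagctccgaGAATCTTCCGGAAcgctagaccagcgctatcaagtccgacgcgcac
Dnajb5: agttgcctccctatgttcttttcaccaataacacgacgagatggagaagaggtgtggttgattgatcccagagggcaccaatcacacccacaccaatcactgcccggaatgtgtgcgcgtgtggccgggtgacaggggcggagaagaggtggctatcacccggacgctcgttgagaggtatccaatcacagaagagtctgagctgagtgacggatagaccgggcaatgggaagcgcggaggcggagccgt

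Hspe1 and Hspd1 encode the co-chaperonin and the chaperonin of mitochondria and lie head to head, so their promoter windows share 285 bases, with both 3-unit elements. The Hspe1 probe read 10278 in KO and 25283 in WT on the first array, and 12061 in KO and 23667 in KO Tg on the second. Its log2 ratio was -0.76 over WT and -0.41 over KO Tg, so KO was the lower sample on both arrays, by 1.69-fold and 1.33-fold. Median centring and no normalization put it at -1.15 and -1.30 over WT, past 2-fold. The brighter Hspd1 probe read 30780.0 in KO and 48918.5 in WT on the first array, and 35465.5 in KO and 51058 in KO Tg on the second, with log2 ratios of 0.01 and 0.18. The other Hspd1 probe gave -0.01 and -0.25. Neither probe of Hspd1 was therefore as far from its control as the Hspe1 probe. The Dnajb5 promoter held no match in this window.

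Among the HSP70 genes, Hspa1a and Hspa8 were lower in KO than in either control by less than 2-fold. Hspa1a encodes the stress-inducible HSP70, and its copy Hspa1b is nearly identical, so the probes cannot be told to read Hspa1a alone. The brightest of its 4 probes (chr17:33066941-33067000, mm7) read 779.9 in KO and 1165 in WT on the first array, and 764.2 in KO and 1228 in KO Tg on the second, with log2 ratios of -0.40 over WT and -0.46 over KO Tg. Over the 4 probes, the log2 ratios ran from -0.78 to -0.05 over WT and from -0.97 to -0.46 over KO Tg, and KO was the lower sample for every probe on both arrays, except that median centring put 1 probe over WT above 0. Probe 4 had the smallest ratio over WT and the largest over KO Tg. It read 233.5 and 219.0 in KO, 258.7 in WT and 521.0 in KO Tg. Probes 1 and 2 share 30 of their 60 bases and gave -0.20 and -0.40 over WT and -0.48 and -0.46 over KO Tg.

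Hspa8, the constitutive HSP70 that is abundant in neurons, had both its probes placed by the files on chr5 of mm7 (chr5:5787852-5787911 and chr5:5788853-5788912), a placement that the sources used here do not explain. Probe 1 read 10775 in KO and 20312 in WT on the first array, and 9372 in KO and 15400.2 in KO Tg on the second. Probe 2 read 7577 in KO and 11667.5 in WT on the first array, and 8322 in KO and 13092 in KO Tg on the second. The log2 ratios over WT were -0.38 and -0.17, and over KO Tg -0.20 and -0.17. All of them lay below 0 and within 1.5-fold of the control. Hspa2, an HSP70 known best from the testis, gave -0.70 and -0.51 over WT, and -0.67 and 0.04 over KO Tg. Without normalization the median over the Hspa2 probes was -1.03 over WT.

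Hspa1l, a testis-enriched HSP70 gene beside Hspa1a, was the only HSP70 gene with a probe at least 2-fold lower in KO by the loess ratio. Its probe (chr17:33075774-33075833, mm7) read 135.5 in KO and 356.2 in WT on the first array, and 123.7 in KO and 198.4 in KO Tg on the second. KO was 2.29-fold lower than WT (log2 -1.20) and 1.35-fold lower than KO Tg (-0.44). Hspa12a, a distant relative of HSP70, had 1 of 4 probes just past 2-fold higher over WT: it read 1221 in KO and 672.4 in WT on the first array, and 1237 in KO and 1024 in KO Tg on the second, with log2 ratios of 1.01 and 0.50. The other Hspa12a probes lay between -0.13 and 0.15 over WT and between -0.29 and -0.04 over KO Tg, so its probes disagreed. Hspa14, which acts with a DnaJ protein at the ribosome, was higher in KO by less than 2-fold, with 6237 in KO and 5352 in WT, and 5158.5 in KO and 3551 in KO Tg (log2 0.57 and 0.86). Hspa12b gave -0.30 and -0.48. Of the mitochondrial Hspa9, 1 probe was saturated in Cy5 on both arrays and gave no fold, and the other gave -0.30 and -0.34.

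Over the 17 probes of the 8 HSP70 genes, 12 lay below 0 over WT and 13 over KO Tg, with medians of -0.20 and -0.29. Of all probes, 16975 of 34571 lay below 0 over WT and 16507 of 33802 over KO Tg. The HSP70 medians stayed below 0 with offset 0, the ratio of the scanner software and the log2 ratio of the deposited value table. They also did with median centring and no normalization, which put the median of all probes below 0 too. For HSP110, Hspa4 and Hspa4l had 4 probes each. Hspa4 lay between -0.34 and 0.41 over WT and between -0.39 and 0.44 over KO Tg. Hspa4l, an HSP110 protein of brain and testis, had probes that disagreed by 1.52 on the log2 scale over WT. The third probe read 9821 in KO and 7831.5 in WT on the first array, and 8961 in KO and 7357 in KO Tg on the second, with log2 ratios of 0.76 over WT and 0.72 over KO Tg. The first probe read 342.7 in KO and 641.5 in WT on the first array, and 356.6 in KO and 361.0 in KO Tg on the second, with -0.76 over WT and 0.18 over KO Tg. WT was thus above KO in the first probe and below it in the third, while over KO Tg all 4 log2 ratios lay above 0 (0.03 to 0.72), except that median centring, no normalization and the deposited log2 ratio put 1 or 2 of them below 0.

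**Figure D2:**
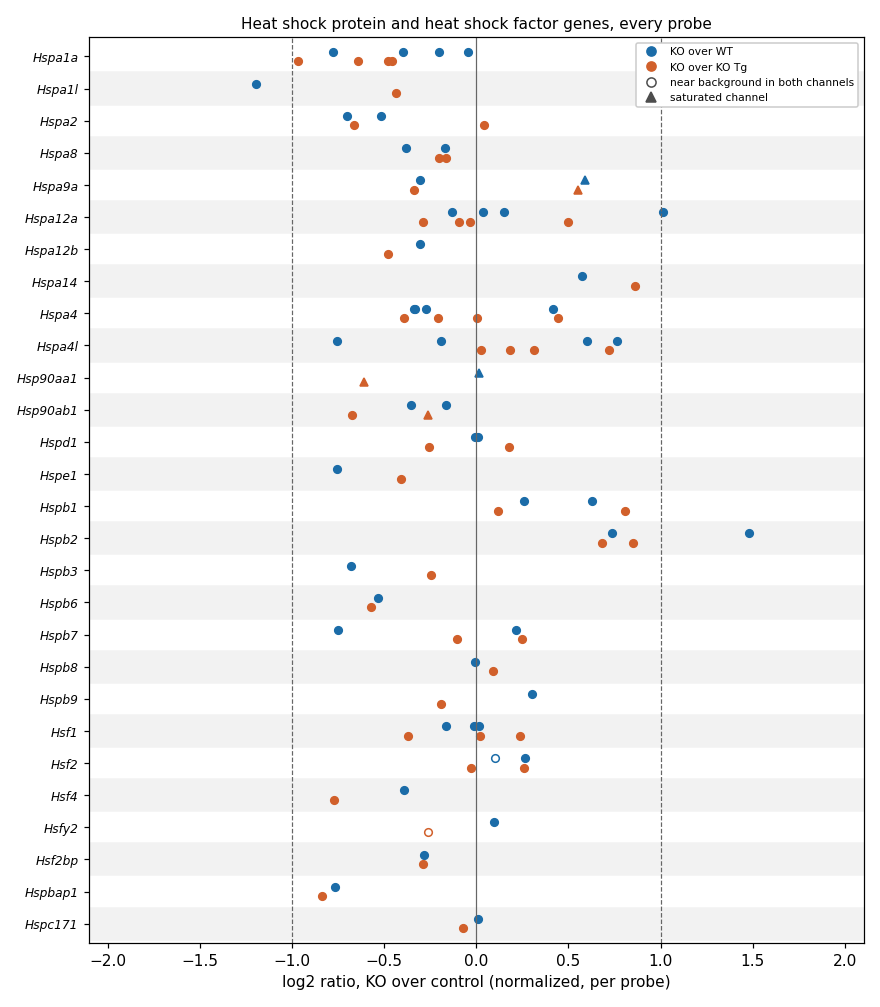
Log2 ratio of every probe of the heat shock protein and heat shock factor genes, over WT (blue) and over KO Tg (orange); open symbols are near background in both channels, triangles have a saturated channel and dashed lines mark 2-fold. Past 2-fold are 1 probe each of Hspa1l, Hspa12a and Hspb2, all over WT.

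The HSP90 genes, whose cytosolic proteins mature steroid receptors and kinases, were read by 3 probes, 2 of them bright enough to reach the upper limit of the scanner. The Hsp90aa1 probe was saturated in Cy5 on both arrays, at 65284 in WT and 65284 in KO Tg, beside 40152 and 26334 in KO. It gave no fold over WT, and KO was at least 1.53-fold lower than KO Tg. The unsaturated probe of Hsp90ab1 read 3297.5 in KO and 5193 in WT on the first array, and 3168 in KO and 6372 in KO Tg on the second, with log2 ratios of -0.35 over WT and -0.67 over KO Tg. Its brighter probe was 1.12-fold lower in KO than in WT and, with KO Tg saturated, at least 1.20-fold lower than in KO Tg. All 3 probes were thus lower in KO than in KO Tg. For the saturated probes these folds are lower bounds, and the Hsp90aa1 log2 ratio over KO Tg was -1.13 with median centring and -1.31 without normalization.

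The small heat shock proteins went in both directions. Hspb2, which is abundant in muscle and whose gene lies next to that of Cryab, was the highest. Its first probe (chr9:50729688-50729747, mm7) read 497.0 in KO and 184.4 in WT on the first array, and 637.9 in KO and 408.3 in KO Tg on the second. KO was 2.79-fold higher than WT (log2 1.48) and 1.80-fold higher than KO Tg (0.85). The second Hspb2 probe read 328.5 in KO and 204.3 in WT on the first array, and 307.5 in KO and 216.1 in KO Tg on the second, with 0.74 and 0.68. KO exceeded its control in both probes on both arrays, and under each of the 5 other ratios tried. Hspb1, a stress-inducible small heat shock protein with a pair of 2-unit elements in its promoter, read 1919.7 in KO and 1442 in WT on the first array, and 2287 in KO and 1557 in KO Tg on the second. This was 1.54-fold and 1.75-fold higher in KO. A further probe with the name Hspb1 is placed on chr13 of mm7, away from the first on chr5, and was near background in Cy5 on both arrays.

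Hspb6, a small heat shock protein of muscle and brain, was lower in KO on both arrays: it read 12573 in KO and 26831 in WT on the first array, and 14008 in KO and 31451 in KO Tg on the second, with log2 ratios of -0.53 over WT and -0.57 over KO Tg. Without normalization Hspb6 was past 2-fold lower on both arrays, at -1.09 and -1.17. Hspb3 gave -0.68 and -0.24. The probes of Hspb7 disagreed, with -0.75 and 0.22 over WT. The second of them was printed repeatedly, and its 9 spots on the first array ranged from 0.03 to 0.36 (SD 0.10) and its 10 spots on the second from 0.07 to 0.45 (SD 0.13). Hspb8, which works with BAG3 in the disposal of aggregates, gave -0.01 and 0.09, and Hspb9, a testis gene, 0.30 and -0.19.

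HSF1, the factor that drives the heat shock response, did not move by 2-fold at any of its 3 probes, with log2 ratios between -0.16 and 0.01 over WT and between -0.37 and 0.24 over KO Tg. Its brightest probe read 31718 in KO and 57225 in WT on the first array, and 26582 in KO and 55224 in KO Tg on the second. Hsf2 was dim: its first probe was near background in both channels of the first array, its second read 102.9 in KO and 79.5 in WT, and both were above background on the second array in the KO channel alone. Hsf4, known from the lens, was lower in KO than in KO Tg by 1.70-fold and than in WT by 1.31-fold, at 384.4 in KO and 553.5 in WT, and 400.7 in KO and 811.0 in KO Tg. Hsfy2, a testis gene, was above background on the first array alone, at 87.3 in KO and 83.4 in WT. Of the genes that are named for partners, Hspbap1 was lower in KO by 1.70-fold and 1.79-fold, and Hsf2bp by 1.22-fold and 1.22-fold, while Hspc171 gave 0.01 and -0.07.

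With the loess ratio, Dnajb5 had the largest change of all chaperone genes and the widest gap between probes. With the ratio of the scanner software and the deposited log2 ratio, the dim Dnajc5b (-2.62 and -2.71) and Dnajc5g (-2.39 and -2.40) were further from KO Tg than Dnajb5 (-2.12 and -2.12). By the same ratios the dim Dnajb13 (2.43 and 2.22) was further from WT than Dnajb5 (-2.14 and -2.14). Dnajb5 is a type B DnaJ protein of the cytosol. Its 3 probes are 60 bases long and lie on the plus strand of chr4 (mm7), at 42971136-42971195, 42971411-42971470 and 42971940-42971999. Their first 30 bases are printed to identify them, in lower case, since no base is singled out:
Dnajb5 probe 1: tgtgtggctgcaccgtgaacattcccacca
Dnajb5 probe 2: actcaccccatctcacgtggacccggctgg
Dnajb5 probe 3: ttgagcacgagacacttttcatttggggca
The second probe read 210.0 in KO and 816.5 in WT on the first array, and 224.3 in KO and 929.8 in KO Tg on the second. KO was 3.45-fold lower than WT (log2 -1.79) and 3.40-fold lower than KO Tg (-1.76), so it was below both controls. The third probe read 929.1 in KO and 2799 in WT on the first array, and 1072 in KO and 1440.2 in KO Tg on the second. Here KO was 2.58-fold lower than WT and 1.15-fold lower than KO Tg, and KO Tg lay below WT (log2 -1.17 through the KO channels). This was the only chaperone probe above background on both arrays that was past 2-fold between KO Tg and WT. The first probe read 1192.5 in KO and 1395 in WT on the first array, and 1185 in KO and 1938 in KO Tg on the second, with log2 ratios of -0.03 and -0.46. KO was thus the lowest sample for all 3 probes on both arrays, under each of the 6 ratios computed, but the size ran from 1.02-fold to 3.45-fold. All 3 probes have the same share of G and C (55.0%).

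**Figure D3:**
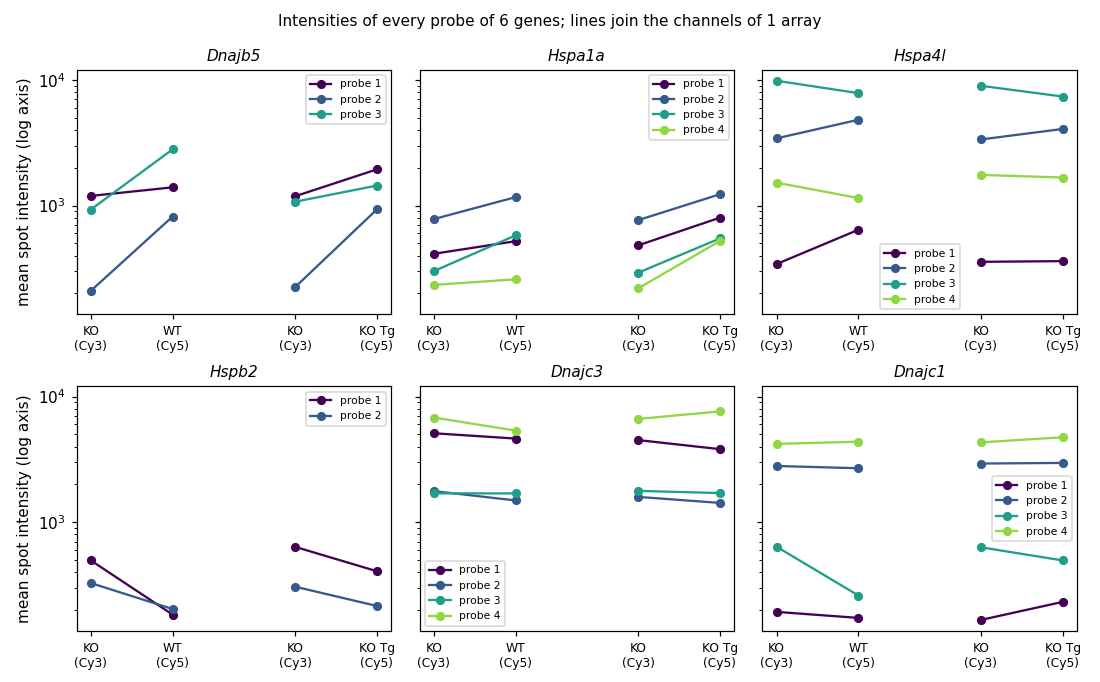
Mean spot intensity (log axis) of every probe of Dnajb5, Hspa1a, Hspa4l, Hspb2, Dnajc3 and Dnajc1 in the KO and WT channels of the first array and the KO and KO Tg channels of the second; each line joins the channels of 1 array, before normalization. The second Dnajb5 probe rises from 210.0 to 816.5 in WT and from 224.3 to 929.8 in KO Tg, while the third rises more to WT than to KO Tg and the first more to KO Tg than to WT.

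Of the other type B proteins, Dnajb3, a testis DnaJ protein, was 2.11-fold lower in KO than in WT (log2 -1.08) and gave -0.13 over KO Tg. Its probe read 487.5 in KO and 1168 in WT on the first array, and 523.3 in KO and 667.7 in KO Tg on the second, so WT was the sample apart. Dnajb6, which holds back polyglutamine aggregation, was lower in KO by 1.64-fold and 1.63-fold at its brightest probe, which read 5741 in KO and 12679.7 in WT on the first array, and 6568 in KO and 14891 in KO Tg on the second. Its probe 3 gave -0.08 and -0.17. Its first probe gave -0.01 and -0.78, and the KO readings of that probe differed between the arrays (4783 and 3386). Without normalization the median over the Dnajb6 probes was -1.13 over KO Tg.

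Dnajb1, the stress-inducible partner of HSP70, read 15181.5 in KO and 22777 in WT on the first array, and 16886 in KO and 20206 in KO Tg on the second at its brighter probe, with log2 ratios of -0.02 and 0.32, and the other probe gave 0.14 and 0.30. Dnajb2 (Dnajb10 in the files), a neuron-enriched DnaJ protein, gave 0.05 and 0.06. Dnajb4 lay between -0.09 and 0.04 over WT at its 3 probes above background, and between -0.05 and 0.47 over KO Tg. Dnajb8, a testis gene, gave 0.36 and 0.20. Dnajb7 and 1 probe of Dnajb13 were near background in both channels of both arrays. The other Dnajb13 probe was above background in the KO channel alone. It read 72.7 in KO and 51.0 in WT, and 70.0 in KO and 56.1 in KO Tg, with log2 ratios of 0.30 and 0.33. Among the type A proteins, all 3 probes of Dnaja1 lay below 0, between -0.56 and -0.15 over WT and between -0.27 and -0.08 over KO Tg. Dnaja2 gave -0.15 and 0.35. Dnaja4 gave 0.26 and -0.59 over WT and -0.03 and 0.10 over KO Tg. The mitochondrial Dnaja3 had a probe that was saturated in Cy5 on both arrays and another that gave -0.04 and 0.24.

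The type C proteins have the J domain alone in common and work in many places. The DnaJ proteins of the ER, of type B and type C, had 21 probes, of which 16 lay above 0 over WT and 14 over KO Tg, with medians of 0.24 and 0.21. Without normalization these medians were 0.05 and -0.13. The second changed sign, but the median of all probes lay lower still on both arrays in that setting. Dnajc3, an ER lumen protein that inhibits eIF2alpha kinases, was above its control at all 4 probes on both arrays, with log2 ratios from 0.21 to 0.71 over WT and from 0.21 to 0.56 over KO Tg. Its probe 4 read 6814 in KO and 5366 in WT on the first array, and 6641 in KO and 7623 in KO Tg on the second. Its probe 1 read 5109.6 in KO and 4635 in WT on the first array, and 4509.5 in KO and 3820.2 in KO Tg on the second. No Dnajc3 probe reached 2-fold, and 1 probe fell below 0 over KO Tg with median centring and 1 on each array without normalization. The 4 probes of Dnajc10, an ER reductase, lay between 0.02 and 0.35 over WT but between -0.25 and 0.52 over KO Tg. Dnajb11, a co-chaperone of the ER lumen, gave -0.14 and 0.21, and Dnajb12, an ER membrane protein, stayed within 1.5-fold at both probes, as did Dnajc14, which was on no list of places.

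Dnajc1, an ER membrane protein that binds ribosomes, had 1 of 4 probes past 2-fold. This probe (chr2:18292823-18292882, mm7) read 638.0 in KO and 261.6 in WT on the first array, and 632.6 in KO and 497.7 in KO Tg on the second. KO was 2.52-fold higher than WT (log2 1.33) and 1.45-fold higher than KO Tg (0.54). The other probes gave 0.21 to 0.31 over WT and -0.28 to 0.26 over KO Tg, so only this probe was past 2-fold. Dnajc18, another ER membrane protein, had a probe that read 474.6 in KO and 246.8 in WT on the first array, and 489.6 in KO and 261.1 in KO Tg on the second, which was 1.99-fold and 2.09-fold higher in KO. Its other probe gave -0.18 and 0.55. The probes of Dnajc16 disagreed by 1.30 over WT, from -0.41 to 0.90.

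In mitochondria, Dnajc11, which takes part in the upkeep of cristae, had a probe 2.06-fold higher in KO than in KO Tg. That probe read 246.1 in KO and 164.6 in WT on the first array, and 241.8 in KO and 123.8 in KO Tg on the second, with log2 ratios of 0.57 over WT and 1.04 over KO Tg. The other Dnajc11 probe, printed in 10 spots, was below WT (-0.42, SD 0.05 over 10 spots) and close to KO Tg (0.07, SD 0.11 over 9 spots), so both probes were apart from each other by far more than the spread of spots. Dnajc4 was higher in KO by 1.46-fold and 1.42-fold. Dnajc15 gave -0.13 and 0.08, and the 3 Dnajc19 probes lay between 0.03 and 0.16 over WT but between -0.33 and 0.41 over KO Tg.

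The DnaJ proteins of synaptic and endocytic vesicles were slightly lower in KO, without a probe past 2-fold, except that median centring put Dnajc6 at -1.01 over KO Tg and no normalization at -1.20. Dnajc5 encodes the cysteine string protein of synaptic vesicles, Dnajc6 the clathrin-uncoating factor auxilin and Dnajc13 an endosomal protein. The Dnajc6 probe read 14017 in KO and 24053 in WT on the first array, and 12201 in KO and 28019 in KO Tg on the second, with log2 ratios of -0.22 over WT and -0.62 over KO Tg. Of the 3 Dnajc5 probes, the brightest in WT read 21919.6 in KO and 41003.5 in WT on the first array, and 22478.5 in KO and 41162 in KO Tg on the second, with -0.27 and -0.22, and the third probe gave 0.33 and -0.15. Over the 5 probes of these genes, 4 lay below 0 over WT and 5 over KO Tg, with medians of -0.22 and -0.36. These medians stayed below 0 under the 5 other ratios, but median centring and no normalization put the median of all probes below 0 too. The testis relatives of Dnajc5, Dnajc5b and Dnajc5g, were dim. Of each, 1 probe was past 2-fold lower in KO than in KO Tg: the Dnajc5b probe read 57.6 in KO and 48.1 in WT on the first array, and 66.8 in KO and 183.1 in KO Tg on the second. The Dnajc5g probe read 63.7 in KO and 88.0 in WT on the first array, and 77.9 in KO and 226.8 in KO Tg on the second. The KO Tg sample was the high one for both, and the other probe of each gene gave 0.00 and -0.46 over KO Tg.

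Dnajc12, which associates with the hydroxylases that make tyrosine and the precursors of dopamine and serotonin, was higher in KO. Its probe read 5522 in KO and 3755 in WT on the first array, and 5218 in KO and 3945 in KO Tg on the second, so KO exceeded WT by 1.83-fold (log2 0.87) and KO Tg by 1.66-fold (0.73). Dnajc7, which binds both HSP70 and HSP90, was 1.97-fold lower in KO than in WT (log2 -0.98) and 1.35-fold lower than in KO Tg, at 5409 in KO and 14436 in WT, and 6286 in KO and 11533 in KO Tg. It lay just inside 2-fold, and median centring (-1.26), no normalization (-1.41), the ratio of the scanner software (-1.01) and the log2 ratio of the deposited value table (-1.01) put it past 2-fold over WT. The pair of Dnajc8 probes, which share 40 bases, gave 0.25 and -0.01 over WT and 0.64 and 0.43 over KO Tg. Dnajc9, a histone chaperone, had a probe saturated in Cy5 on both arrays and a dimmer one that gave -0.32 and -0.83. Dnajc2, which acts at the ribosome with Hspa14, gave 0.02 and -0.13 over WT and -0.42 and -0.24 over KO Tg, and both probes of Dnajc17 stayed within 1.5-fold on both arrays.

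**Figure D4:**
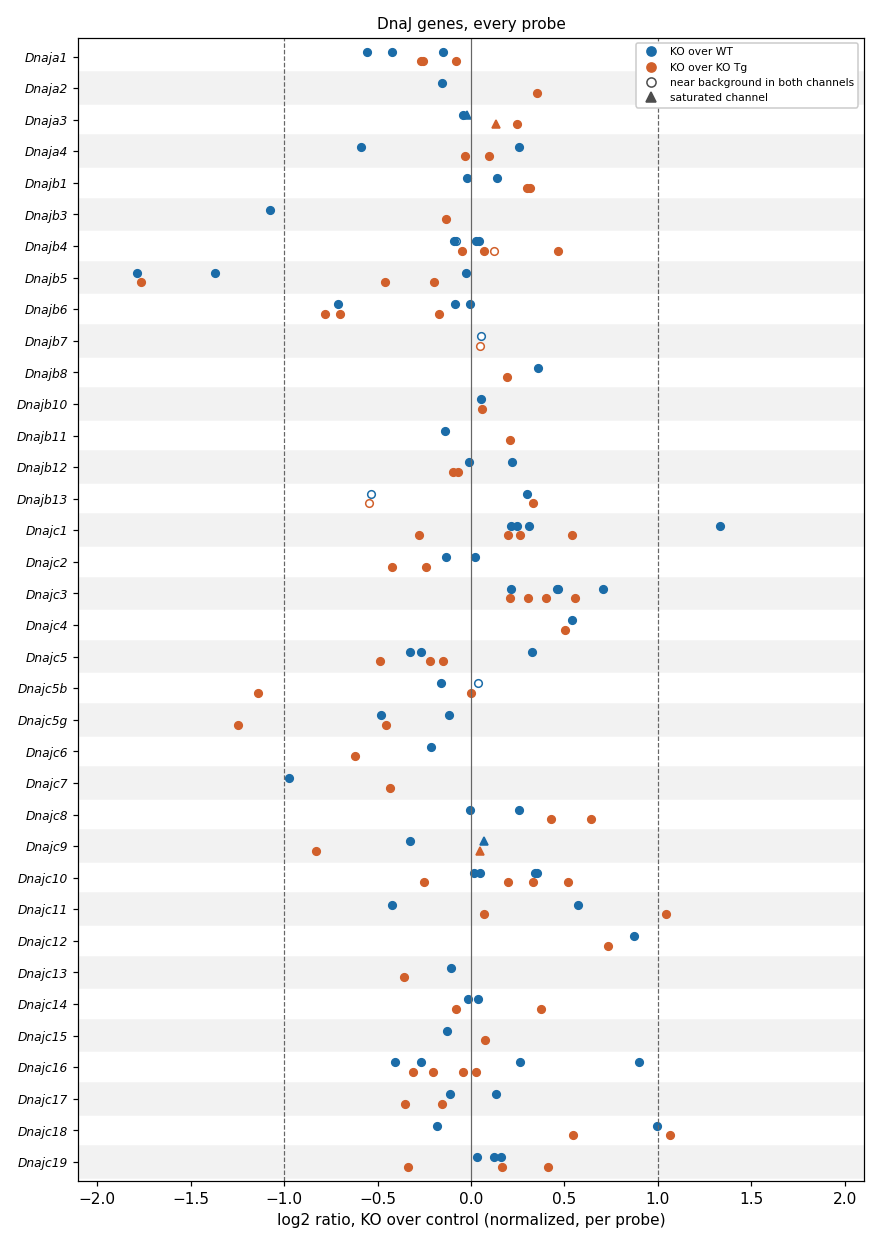
Log2 ratio of every probe of the 36 DnaJ genes, over WT (blue) and over KO Tg (orange), with symbols and dashed lines as for the heat shock proteins. Dnajb5 has the lowest probe on both arrays, the 4 Dnajc3 probes lie above 0 and Dnajc1 has 1 probe apart from its other 3.

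Probes of 1 gene could disagree. Among 35 chaperone genes with several probes above background on the first array, 6 (17.1%) had probes at least 1 apart on the log2 scale, beside 20.0% of 7637 genes of the array. On the second array this held for 2 of 37 (5.41%), beside 18.8%. Over WT these were Dnajb5, Dnajc1, Dnajc16, Dnajc18, Hspa12a and Hspa4l, and over KO Tg Dnajb5 and Dnajc5b.

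Genes that HSF1 is known to induce were read at the brightest probe of each. Of 13 such genes that carry a heat shock protein or DnaJ name today, Hsph1 included, 2 were saturated over WT and 3 over KO Tg (Hsph1 and Hsp90aa1, and Hsp90ab1 over KO Tg). For these the fold was a lower bound or was not given. Of them, Hsp90aa1 was past 2-fold lower over KO Tg with median centring and without normalization. Of the other 11 and 10, 0 were past 2-fold, except that Hspe1 was past it over WT with median centring and Hspe1 and Dnaja1 without normalization. The medians over all 13 were -0.01 and 0.03. Of 13 other genes of this kind, 1 was at least 2-fold higher in KO on each array and 0 were lower with the loess ratio, with medians of 0.08 and 0.10. The gene past 2-fold was Bag3, a nucleotide exchange factor of HSP70, which read 8169.9 in KO and 3946 in WT, and 8603 in KO and 4159 in KO Tg. This was 2.63-fold and 2.68-fold higher in KO. The polyubiquitin gene Ubb was the lowest of these genes over WT, with log2 ratios of -0.84 and -0.56, and was past 2-fold lower over WT with median centring and without normalization. Cryab, a small heat shock protein, gave 0.09 and 0.81.

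Of 21 co-chaperones of HSP90 and HSP70, which include Bag3 and had 1 saturated probe on each array, 1 was past 2-fold in each direction on each array, except that without normalization 3 were lower over WT. The lower one was Fkbp5, an HSP90 co-chaperone of the glucocorticoid receptor, with 3069.8 in KO and 10831 in WT, and 3429 in KO and 9029 in KO Tg. KO was 2.75-fold lower than WT and 2.04-fold lower than KO Tg. Of 13 subunits of the cytosolic chaperonin CCT and of prefoldin, 0 were past 2-fold on either array, except for Vbp1 on both without normalization, with medians of 0.01 and -0.00. Of 8 chaperones and proteases of mitochondria, 0 were past 2-fold on either array, and the medians were 0.11 and 0.16. Among them Clpb, a mitochondrial disaggregase, gave -0.68 over WT and 0.40 over KO Tg.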

How the data were processed

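RNA from the whole brain was labelled and hybridised by the authors to 2 two-colour Agilent mouse arrays, KO in Cy3 and WT or KO Tg in Cy5. The deposited scanner files of the authors (Agilent Feature Extraction 9.5.3.1) hold spot intensities, a log10 ratio of Cy5 over Cy3 and its p-value from the scanner's error model, which are no replicate test, and the deposited value table holds a log2 ratio. The deposited log2 ratio lacked 5373 and 5457 of 41174 probes, had medians of -0.01 and -0.01, and differed by a median of 0.0059 and 0.0058 from the scanner's ratio once that was turned to log2 of Cy3 over Cy5, so the deposited log2 ratio runs as Cy3 over Cy5, opposite to the scanner's. The normalization of the deposited table beyond this is not given in the sources used here.

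Mean intensities were corrected for background with normexp (offset 50) and normalized within each array by loess in limma 3.58.1 (R 4.3.3, with version 1.17.8 of the data.table package). Control spots and spots marked as outliers were left out, and spots of 1 probe were averaged. A probe counted where it was well above background in at least 1 channel, and was called past 2-fold. A saturated probe gave a fold only as a bound, or none where the saturated channel was the lower one after normalization. Where the lower channel alone was near background, the fold was also a bound, or was not given where that bound fell below 1. KO Tg was set against WT by subtracting one log2 ratio from the other. That step takes the KO channels of both arrays as alike. They differed at some probes: TDAG51 read 350.5 and 44.1 in KO, and the blood gene Hba-a1 2259.5 and 35469.5. Any such difference enters the values of KO Tg over WT. The loess fit takes out a trend of the ratio with intensity, and some bright probes, such as that of Hspe1, lay lower without it. Normalization was tested on simulated data. The simulation had a constant shift between the dyes, so it did not test a trend with intensity, nor saturation. Tables, sequences and plots used Python 3.11.15, numpy 2.4.6, pandas 2.3.3 and matplotlib 3.10.9.

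Current symbols from RefSeq were found for 32716 probes (22944 through the accession, 6664 through the symbol, 3108 through an older name) but not for 8458. Probe positions are those of the files (mm7), and promoters those of RefSeq on GRCm38.p6. The members and all lists were chosen with earlier results of these data known. The genes named were those with a probe past 2-fold, a list of well-known chaperones, genes whose probes were at least 1 apart on the log2 scale, and up to 4 genes of each related list with the largest ratios. Further genes, among them Dnajc7, Dnajc12, Hspbap1 and the dim testis genes, were named after their values were seen, so that every member is accounted for. Protein sequences were not analysed here. The alternatives were an offset of 0, median centring, no normalization, both deposited ratios, stricter and looser filters on dim and saturated probes, the scanner's p-value under 0.05 as a further condition, and the brightest probe of each gene.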

Additional observations from a re-analysis of the deposited data

How the results depend on the processing

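Of the chaperone probes past 2-fold, 7 of 7 over WT and 5 of 5 over KO Tg stayed past it with an offset of 0 and with both deposited ratios. Over WT 6 of 7 stayed with median centring and without normalization (Hspa12a gave 0.98 and 0.83), and over KO Tg 5 of 5 and 3 of 5 (Dnajc18 gave 0.85 and Dnajc11 0.86 without normalization). Over WT the number at least 2-fold higher was 5 with an offset of 0, 7 with the scanner's ratio, 7 with the deposited log2 ratio and 1 with the brightest probe of each gene, against 3. The share of all probes rose as well, from 4.90% to 9.08% with an offset of 0. It was 11.6% with the scanner's ratio and 11.3% with the deposited log2 ratio. The number of chaperone probes at least 2-fold lower was 7 with median centring and 10 without normalization, against 4. Over KO Tg the number higher was 0 without normalization, 6 with the scanner's ratio, 5 with the deposited log2 ratio and 0 with the brightest probe, against 2. The number lower was 5 with median centring, 13 without normalization and 5 with either deposited ratio, against 3. Between KO Tg and WT the number higher was 2 with an offset of 0, 4 with either deposited ratio, and 1 each with median centring, without normalization and without the filter on dim probes, against 0. The number lower was 3 with an offset of 0 and 4 with either deposited ratio, against 1. Here too the shares of all probes rose, from 2.82% higher and 3.18% lower to 5.51% and 5.90% with an offset of 0. They were 7.13% and 7.64% with the scanner's ratio, and 7.23% and 7.18% with the deposited log2 ratio. The median of the chaperone probes over WT was -0.17 with median centring, -0.32 without normalization and -0.10 with the brightest probe, against -0.01. The median over KO Tg was -0.18 with median centring and -0.36 without normalization, against -0.05. Without normalization the median of all probes was -0.19 and -0.25, so relative to it the chaperone medians moved less. The cause of these shifts was not tested. The other settings left these counts within 1.5 times. No paired analysis was possible because each comparison rests on 1 array. Signal over background limited 5 and 4 chaperone probes, which were near background in both channels, and saturation 4 and 5.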
